A study of Mus musculus with 56 samples.

Results

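The transcripts described here are 36 genes of ribosome biogenesis in mouse visceral adipose tissue (VAT), chosen by name from the 25939 genes of the deposited table, and all 36 were found by symbol. They cover the catalytic and accessory subunits of RNA polymerase I, the proteins of the 2 classes of small nucleolar ribonucleoprotein (snoRNP), the factors that build the small and the large ribosomal subunit, and abundant nucleolar phosphoproteins with a nucleolar helicase. VAT came from female C57BL/6J mice that were 7 weeks old when they began 7 days of entrainment to 12 h of light and 12 h of dark, and 9 weeks old at sampling. For 7 days food was given only in the light phase (daytime restricted feeding, DRF) or only in the dark phase (night-time restricted feeding, NRF), so all groups shared strain, sex, age, light cycle and a restricted meal, and differed in when food was present and in the hour of sampling. Samples were taken at zeitgeber time (ZT, hours after lights on) 0, 4, 8, 12, 16, 20 and 24, with 4 libraries in each of the 14 groups and 56 in all, and each library held 31180000 to 41299339 reads on genes. VAT is a mixed tissue, so fewer cells of a type and less RNA per cell cannot be told apart.

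A cell makes ribosomes in the nucleolus, where RNA polymerase I transcribes a long precursor of ribosomal RNA. Box C/D and box H/ACA snoRNPs guide methylation and pseudouridylation of that precursor, and sets of assembly factors then cleave it and fold it into the small and the large subunit. The process takes a large share of the energy of a growing cell and is known to follow nutrient supply through the insulin, TOR and MYC pathways.

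Levels are given as log2(CPM + 1), where CPM is the usual depth-scaled read count, taken over the library size that the authors used. In 29 of 36 members the fitted 24 h cosine peaked between ZT18 and ZT24 under NRF and also between ZT6 and ZT12 under DRF, a combination held by 17.8% of the 15977 genes that passed the filter on low values. These windows were not part of the planned comparisons and lie around the members' own median fitted peaks, ZT20.1 and ZT8.2. The count includes members without a called rhythm, such as Rrs1 and Nop14. The mean of the 36 members, each set relative to its own mean over all libraries, was highest at ZT20 under NRF (0.26 ± 0.06, SD, n = 4) and lowest at ZT8 (-0.25 ± 0.08). Under DRF it was highest at ZT4 (0.24 ± 0.05) and lowest at ZT0 (-0.27 ± 0.04). In libraries, the NRF values at ZT20 were 0.21, 0.30, 0.31 and 0.20 and those under DRF were -0.22, -0.22, -0.11 and -0.11, so the regimens did not overlap there. At ZT4 the NRF values were 0.06, -0.12, -0.11 and -0.12 and the DRF values were 0.20, 0.19, 0.27 and 0.28, which did not overlap either. The widest spread was at DRF ZT8, with values of 0.51, -0.12, 0.18 and 0.05.

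**Figure D1:**
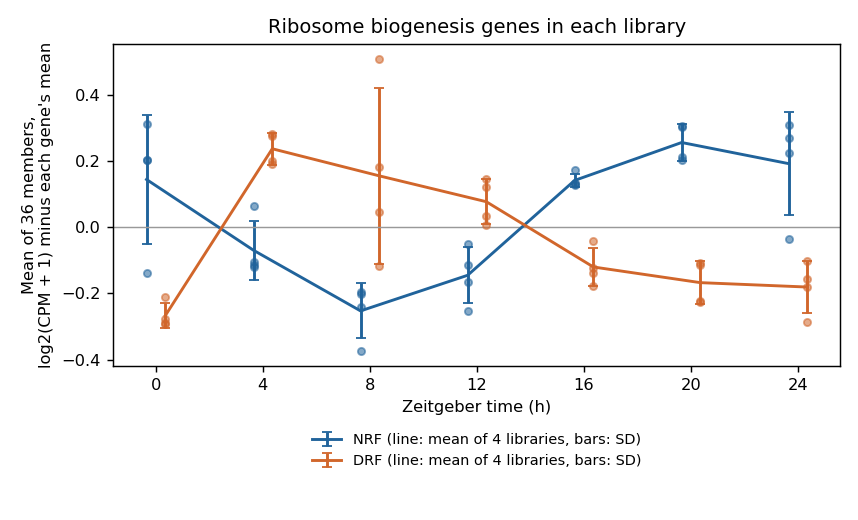
Mean of the 36 members in each of the 56 libraries (points) against zeitgeber time in h, each gene set to 0 at its own mean of log2(CPM + 1), with the mean (line) and SD (bars) of the 4 libraries of a group. The NRF line runs from -0.25 at ZT8 to 0.26 at ZT20, and the DRF line from -0.27 at ZT0 to 0.24 at ZT4.

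The libraries DRF ZT8 replicate 1 and DRF ZT0 replicate 4 stood apart from the other 54 on the second principal component, at 73.1 and 55.2 against at most 12.7. A list of 6 adipocyte genes summed to 8747 and 13609 CPM in these libraries and to 15669 to 31095 CPM in the other 54. A list of 12 genes of uterine and oviduct epithelium, 10 of them in the table, summed to 960 and 6977 CPM against 81.5 to 203 CPM, and 6 proliferation genes summed to 337 CPM in DRF ZT8 replicate 1 against 44.5 to 176 CPM. The part of such cells in the members' values was not tested, and values without these libraries are given beside the results that moved most. Without DRF ZT8 replicate 1 the mean of the members at DRF ZT8 was 0.04 ± 0.15 (SD of the other 3 libraries), against 0.16 ± 0.27 with it. Over all libraries none of the 6 proliferation genes was called rhythmic in either regimen, and 6 of 6 had a higher mean level under DRF (18.6% of all genes). A rhythm was called for 4 of the 6 adipocyte genes in the NRF libraries and for all 6 in the DRF libraries, against 42.0% and 25.6% of all genes. For 5 of the 6 the fitted peaks ran opposite to the members, from ZT8.7 to ZT12.2 under NRF, and Lep was the exception at ZT19.8 under NRF and ZT7.2 under DRF. Adipocyte genes were lower under DRF in 4 of 6 at ZT8 (12.2% of all genes) and at ZT12 (12.1%) and higher in 3 of 6 at ZT24 (10.4%). In mean level 4 of 6 mesothelium genes and 3 of 6 macrophage genes were lower under DRF (17.3% of all genes) and 4 of 5 blood genes were higher (18.6%), and 4 of the 5 blood genes were rhythmic under NRF. At ZT4 4 of 6 mesothelium and 4 of 6 macrophage genes were lower under DRF (15.8% of all genes) and 3 of 5 blood genes were higher (18.1%), and at ZT24 4 of 5 blood genes were higher (10.4%). The part of these lists in the members' values was not tested.

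Rhythmicity in each regimen was called from JTK_CYCLE and Lomb-Scargle p-values joined by Fisher's method, at an adjusted p under 0.05 over all genes tested. Under NRF 25 of 36 members were rhythmic, where 42.0% of all genes were called. Under DRF 24 of 36 members were rhythmic, where 25.6% of all genes were called. Without replicate 1 of every group the count under DRF was 9, and without the 2 libraries that stood apart it was 21. By Lomb-Scargle alone the adjusted p was under 0.05 in 18 members under NRF and in 0 under DRF. The unadjusted Lomb-Scargle p was under 0.05 in 22 and 16. Dual-oscillating members, rhythmic in both regimens, numbered 20, against 16.9% of all genes. They numbered 8, 12, 11 and 13 without replicate 1, 2, 3 and 4, 14 without ZT24 and 17 without the 2 libraries that stood apart. Of the rest, 5 were rhythmic under NRF alone (Polr1b, Dkc1, Wdr75, Bms1 and Wdr12), 4 under DRF alone (Polr1c, Fbl, Noc2l and Ncl) and 7 in neither (Nop10, Gar1, Utp4, Nop14, Pes1, Rrs1 and Npm1). A call in 1 regimen and not in the other is not a test of their difference, which is given next.

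The regimens were compared gene by gene with a moderated F test of the difference between the fitted cosines. The rhythm differed in 33 of 36 members, where 53.9% of all genes were called, and the exceptions were Nop10, Pes1 and Npm1. The dual-oscillating members peaked under NRF between ZT18.4 (Utp15) and ZT23.4 (Nhp2), with a median of ZT20.3, and under DRF between ZT7.2 (Wdr43) and ZT9.8 (Utp20), with a median of ZT8.2. The distance between the peaks was 8.29 to 12.0 h, with a median of 11.4 h and standard errors of 0.65 to 1.36 h. In 17 members the rhythm was called in both regimens with peaks at least 10 h apart, against 9.04% of all genes. This count was 8 without replicate 1, 10 without replicate 3, 12 and 13 without replicate 2 and 4, and 16 without the 2 libraries that stood apart. The members below 10 h were Nop58 (9.84 ± 0.91 h, SE), Utp15 (9.02 ± 1.20 h) and Nhp2 (8.29 ± 1.36 h).

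Since food was moved by 12 h, each member was also tested for departure from an exact inversion, in which the DRF cosine is the NRF cosine with its sign changed. This test called 6 of 36 members (Nop10, Gar1, Wdr75, Heatr1, Utp20 and Bms1), where 26.0% of all genes were called. The count was 12, 2, 2 and 3 without replicate 1, 2, 3 and 4, and 9 without the 2 libraries that stood apart, with Polr1b, Nop58 and Noc3l added. For the other 30 members a departure was not detected, which does not show that the inversion was exact. The NRF amplitude was the larger in 22 of 36 members, against 58.1% of all genes, and the median amplitude (log2 units from mean to peak) was 0.28 under NRF and 0.25 under DRF, against 0.16 and 0.14 over all genes. The amplitude was smaller under DRF in 2 members, Wdr75 and Bms1, where 2.42% of all genes were called, and larger in 0 of 36, where 0.782% were called. At an unadjusted p under 0.05 the same Wald test gave 10 smaller and 2 larger. Without the 2 libraries that stood apart the smaller amplitudes numbered 4, with Polr1b and Utp20 added.

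**Figure D2:**
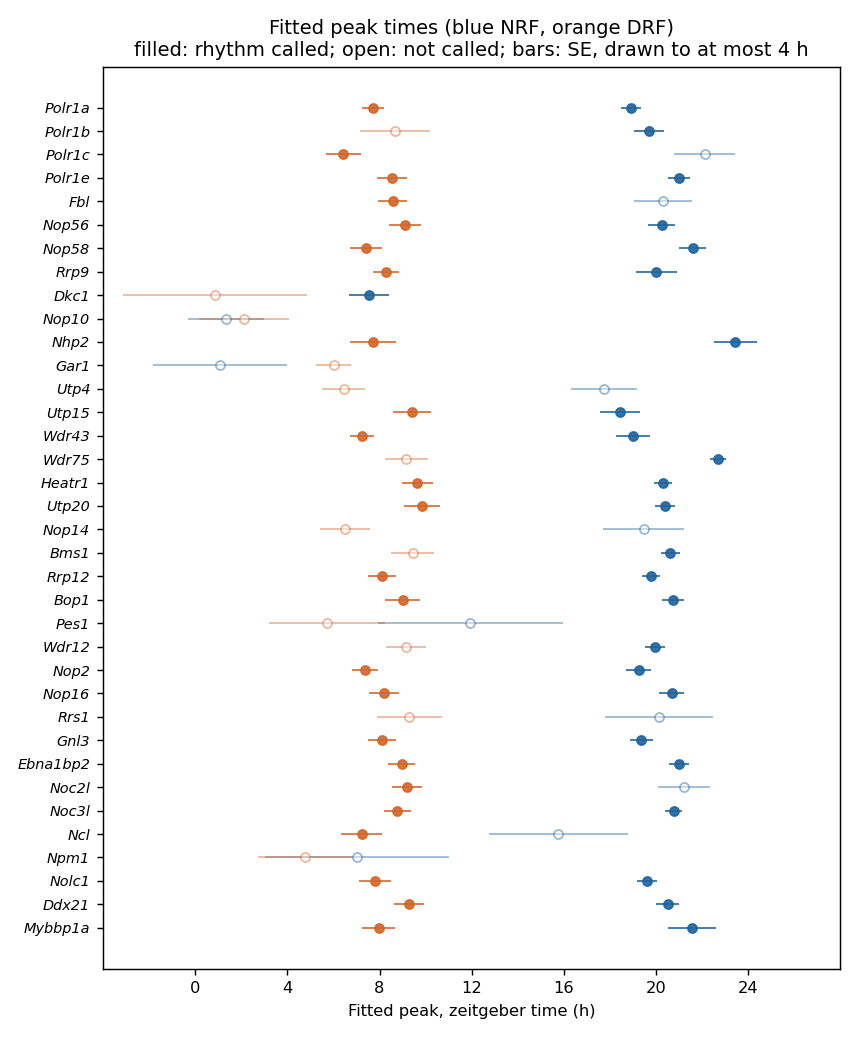
Fitted peak in zeitgeber time (h) of each of the 36 members under NRF (blue) and DRF (orange), with standard errors drawn to at most 4 h, filled where the rhythm was called. The 20 dual-oscillating members lie between ZT18.4 and ZT23.4 under NRF and between ZT7.2 and ZT9.8 under DRF, while Dkc1, Nop10, Gar1, Utp4, Pes1, Ncl and Npm1 lie outside ZT18 to ZT24 under NRF or ZT6 to ZT12 under DRF.

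Promoter windows are described by letters alone, and a link between these letters and the peak times was not tested. Members with a word lay both inside the peak windows given above and outside them (Gar1, Utp4 and Pes1). RefSeq windows on GRCm38.p6, running from 250 bases before to 50 after the annotated start, were matched for 31 of 36 members, and Fbl, Rrp12, Bop1, Rrs1 and Npm1 were without a matched entry. The ETS-type word CCGGAAGT, or ACTTCCGG on the other strand, stood in 9 of 31 members (29.0%), in 4.31% of the 27025 genes of the promoter table and in 8.44% of those genes that were tested here. The median GC content was 58.8% in the windows of members and 52.7% in all windows, and its part in these shares was not tested. The MYC-type E-box CACGTG, which reads the same on both strands, stood in 6 of 31 members (19.4%: Utp4, Wdr43, Utp20, Pes1, Nop2 and Mybbp1a), in 8.09% of the genes of the table and in 11.35% of those tested. The NRF1-type word GCGCATGC and the YY1-type word AAGATGGC, each searched on both strands, were in 0 of 31 members in 3.05% and 3.19% of the genes of the table and in 5.47% and 4.87% of those tested. A match says only that these letters are in the window, and the name given to a word does not say which factor binds there. Stretches of 30 bases around the word follow, 5′ to 3′ on the strand of the gene, with the word in capitals.
Heatr1, chr13:12395348-12395377, plus strand: gtagtgagaagCCGGAAGTtcctatgaggc
Bms1, chr6:118419508-118419537, minus strand: acccagagcttACTTCCGGctttcccctga
Polr1c, chr17:46248069-46248098, minus strand: ccacttgacgtCCGGAAGTgaaggacgtgg
Ebna1bp2, chr4:118620785-118620814, plus strand: caacgagaaaaCCGGAAGTgcggctatgaa
Nhp2, chr11:51619739-51619768, plus strand: cacttgaaaacCCGGAAGTgatgtcggagg
Gar1, chr3:129831422-129831451, minus strand: cgcgccgccacACTTCCGGaaacgtcgcgt
Nop2, chr6:125131811-125131840, plus strand, E-box: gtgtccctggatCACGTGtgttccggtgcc

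RNA polymerase I is the enzyme that makes the ribosomal RNA precursor. Polr1a (chr6:71909053-71984935, plus strand, GRCm38) encodes its largest catalytic subunit and had the largest mean amplitude of the 4 subunits. Polr1a under NRF averaged 5.21 ± 0.22, 4.99 ± 0.17, 4.89 ± 0.14, 5.08 ± 0.07, 5.62 ± 0.13, 5.54 ± 0.14 and 5.46 ± 0.09 from ZT0 to ZT24 (SD, n = 4 here and below). Polr1a under DRF averaged 4.98 ± 0.16, 5.71 ± 0.08, 5.42 ± 0.17, 5.40 ± 0.09, 5.09 ± 0.10, 4.93 ± 0.13 and 4.99 ± 0.08. The high groups were thus ZT16 to ZT24 under NRF and ZT4 to ZT12 under DRF. At ZT4, where the regimens differed most, its NRF libraries read 5.24, 4.84, 4.92 and 4.96 and its DRF libraries 5.74, 5.60, 5.80 and 5.70. At ZT20 its NRF libraries read 5.57, 5.61, 5.66 and 5.34 and its DRF libraries 4.97, 4.74, 4.95 and 5.04. Every DRF library was above every NRF library at ZT4 and below at ZT20. The fitted peak moved from ZT18.9 ± 0.44 h (SE) to ZT7.7 ± 0.48 h with amplitudes of 0.38 ± 0.05 and 0.35 ± 0.05, and the rhythms differed (adjusted p = 1.84e-12).

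Polr1b (chr2:129100995-129126594, plus strand), which shares the active centre with Polr1a, had the smallest mean amplitude of the 4. Polr1b under NRF averaged 4.01 ± 0.12, 3.76 ± 0.13, 3.71 ± 0.04, 3.81 ± 0.12, 4.08 ± 0.13, 4.05 ± 0.12 and 4.07 ± 0.07 from ZT0 to ZT24. Polr1b under DRF averaged 3.79 ± 0.15, 4.0 ± 0.05, 4.06 ± 0.33, 4.02 ± 0.13, 3.86 ± 0.07, 3.96 ± 0.08 and 3.92 ± 0.13. The NRF rhythm was called (adjusted p = 4.20e-05) and the DRF rhythm was not (adjusted p = 1.00), and the difference between them was called (adjusted p = 3.42e-05). Polr1c, a subunit that RNA polymerases I and III share, was rhythmic under DRF alone, with its DRF peak at ZT6.4 ± 0.76 h. Its DRF call (adjusted p = 0.0352) was lost without the 2 libraries that stood apart, without ZT24, without replicate 2, 3 or 4, with no filter and on the deposited values. Polr1e, an accessory subunit, peaked at ZT21.0 ± 0.48 h under NRF and ZT8.5 ± 0.65 h under DRF, and its mean level was higher under DRF by 0.14 ± 0.05 (adjusted p = 0.0191), a call lost under total-read scaling and without replicate 1 or 2. The DRF rhythm call of Polr1e was lost without replicate 1.

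Box C/D snoRNPs carry the methylation of ribosomal RNA. All 4 of their members listed here differed in rhythm between regimens (53.9% of all genes) and all 4 were rhythmic under DRF (25.6%). Without replicate 1 the DRF calls of Nop56, Nop58 and Rrp9 were lost. Nop58 (chr1:59684971-59719044, plus strand), part of the protein scaffold, had the largest mean amplitude. Nop58 under NRF averaged 5.13 ± 0.40, 4.81 ± 0.21, 4.33 ± 0.13, 4.40 ± 0.11, 4.90 ± 0.11, 5.23 ± 0.12 and 5.25 ± 0.34 from ZT0 to ZT24. Nop58 under DRF averaged 4.43 ± 0.16, 5.19 ± 0.07, 5.04 ± 0.77, 4.90 ± 0.08, 4.42 ± 0.16, 4.53 ± 0.13 and 4.49 ± 0.17. Its lowest NRF groups were ZT8 and ZT12, and its highest DRF groups were ZT4, ZT8 and ZT12. At ZT24 the NRF libraries read 4.75, 5.30, 5.43 and 5.51 and the DRF libraries 4.26, 4.58, 4.48 and 4.66, without overlap. At ZT8 the NRF libraries read 4.25, 4.52, 4.25 and 4.29 and the DRF libraries 6.14, 4.45, 4.98 and 4.57. There the groups overlapped, and the highest value came from DRF ZT8 replicate 1. The DRF rhythm of Nop58 (adjusted p = 0.0482) was not called without the 2 libraries that stood apart, with no filter, under total-read scaling, without ZT24 or without any 1 replicate number, while its rhythm difference (adjusted p = 5.13e-09) was called in each of these.

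Fbl (chr7:28169710-28179269, plus strand), the methyltransferase itself, had the smallest mean amplitude of the box C/D members. Fbl under NRF averaged 5.17 ± 0.12, 5.03 ± 0.19, 4.83 ± 0.15, 4.97 ± 0.11, 5.12 ± 0.13, 5.14 ± 0.08 and 5.03 ± 0.19 from ZT0 to ZT24. Fbl under DRF averaged 4.60 ± 0.13, 5.05 ± 0.04, 5.26 ± 0.40, 5.02 ± 0.18, 4.82 ± 0.14, 4.71 ± 0.16 and 4.79 ± 0.09. Its DRF amplitude was 0.29 ± 0.05 and its NRF amplitude 0.14 ± 0.05, and the amplitude difference was not called (adjusted p = 0.255). Nop56, the other scaffold protein, peaked at ZT20.2 ± 0.57 h and ZT9.1 ± 0.70 h. Rrp9, found in the snoRNP that guides early cleavage of the precursor, peaked at ZT20.0 ± 0.89 h and ZT8.3 ± 0.58 h.

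Box H/ACA snoRNPs convert uridine to pseudouridine, and of their 4 core proteins 3 differed in rhythm between regimens (53.9% of all genes), 2 were rhythmic under NRF (42.0%), 1 under DRF (25.6%) and 2 departed from inversion (26.0%). The departure call of Nop10 was lost on the deposited values, without ZT24 and without replicate 2, 3 or 4. That of Gar1 was lost without replicate 3 or 4. Total-read scaling added departures of Dkc1 and Nhp2, leaving out replicate 1 added Nhp2 and leaving out replicate 4 added Dkc1. Nhp2 (chr11:51619735-51623714, plus strand) had the largest mean amplitude of the 4 core proteins. Nhp2 under NRF averaged 5.48 ± 0.21, 5.31 ± 0.20, 4.93 ± 0.25, 5.04 ± 0.14, 5.01 ± 0.11, 5.34 ± 0.10 and 5.25 ± 0.29 from ZT0 to ZT24. Nhp2 under DRF averaged 5.01 ± 0.13, 5.33 ± 0.09, 5.46 ± 0.23, 5.22 ± 0.28, 5.08 ± 0.14, 5.11 ± 0.12 and 5.13 ± 0.15. Its NRF peak at ZT23.4 ± 0.94 h was the latest of the dual-oscillating members. At ZT8 the NRF libraries read 4.56, 5.08, 5.04 and 5.05 and the DRF libraries 5.78, 5.28, 5.49 and 5.30, without overlap. At ZT0 the NRF libraries read 5.17, 5.52, 5.61 and 5.63 and the DRF libraries 5.12, 4.89, 5.13 and 4.91, again without overlap and in the other direction. Its DRF rhythm (adjusted p = 0.0350) was not called without the 2 libraries that stood apart, with no filter, on the deposited values, without ZT24 or without replicate 1, 2 or 4.

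Dkc1, the pseudouridine synthase, which also belongs to telomerase, was the member rhythmic under NRF whose peak lay outside ZT18 to ZT24. Dkc1 under NRF averaged 4.70 ± 0.17, 4.86 ± 0.14, 5.17 ± 0.09, 4.95 ± 0.11, 4.57 ± 0.04, 4.70 ± 0.14 and 4.79 ± 0.11 from ZT0 to ZT24, highest at ZT8, where 26 of the 36 members were at their lowest. Dkc1 under DRF averaged 4.48 ± 0.40, 4.59 ± 0.15, 4.69 ± 0.43, 4.55 ± 0.06, 4.53 ± 0.13, 4.72 ± 0.11 and 4.78 ± 0.27. Its NRF peak lay at ZT7.6 ± 0.86 h, its DRF amplitude was 0.03 ± 0.05, and it was the member lower under DRF at ZT8. The rhythm difference of Dkc1 (adjusted p = 0.0263) was not called without replicate 2, 3 or 4. Its mean level was lower under DRF by 0.22 ± 0.06 (DRF minus NRF -0.22, adjusted p = 0.00204).

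Nop10 (chr2:112261926-112263269, plus strand), the smallest core protein, had the smallest mean amplitude of the box H/ACA members. Nop10 under NRF averaged 5.70 ± 0.17, 5.65 ± 0.16, 5.43 ± 0.27, 5.35 ± 0.12, 5.45 ± 0.16, 5.48 ± 0.11 and 5.48 ± 0.14 from ZT0 to ZT24. Nop10 under DRF averaged 5.42 ± 0.22, 5.70 ± 0.13, 5.46 ± 0.16, 5.43 ± 0.25, 5.45 ± 0.19, 5.52 ± 0.16 and 5.71 ± 0.18. Neither rhythm nor their difference was called (adjusted p = 0.917 for the difference), and the fitted peaks were 0.78 ± 2.55 h apart. Gar1 was rhythmic in neither regimen by the combined test, with a DRF amplitude of 0.30 ± 0.07 and an NRF amplitude of 0.09 ± 0.06. Its rhythm difference (adjusted p = 0.0252) was lost under total-read scaling and without replicate 1, 2 or 3. It was called rhythmic under DRF without the 2 libraries that stood apart and on the deposited values.

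The small subunit processome is the large particle that forms on the nascent precursor and releases the small subunit's part of it. All 9 of its members differed in rhythm between the regimens, 7 were rhythmic under NRF and 5 under DRF, against 53.9%, 42.0% and 25.6% of all genes. The DRF calls of Utp15, Utp20 and Rrp12 were lost without replicate 1, and those of Utp15, Heatr1 and Utp20 without ZT24. Rrp12 (chr19:41862851-41896173, minus strand), which accompanies the pre-ribosome to export, had the largest amplitude of all 36 members in each regimen, 0.67 ± 0.07 under NRF and 0.44 ± 0.07 under DRF. Rrp12 under NRF averaged 4.07 ± 0.35, 3.48 ± 0.34, 3.07 ± 0.24, 3.49 ± 0.19, 4.27 ± 0.14, 4.36 ± 0.20 and 4.19 ± 0.18 from ZT0 to ZT24. Rrp12 under DRF averaged 3.41 ± 0.42, 4.47 ± 0.14, 4.18 ± 0.26, 4.14 ± 0.09, 3.80 ± 0.15, 3.55 ± 0.27 and 3.71 ± 0.09. From peak to trough the fitted cosine spanned 2.54-fold under NRF and 1.84-fold under DRF. At ZT8 the NRF libraries read 3.01, 2.76, 3.23 and 3.26 and the DRF libraries 4.40, 3.84, 4.36 and 4.13. At ZT4 the NRF libraries read 3.98, 3.25, 3.36 and 3.34 and the DRF libraries 4.33, 4.40, 4.48 and 4.66. Every DRF library was above every NRF library at both times. The rhythms differed (adjusted p = 1.32e-12), with peaks at ZT19.8 ± 0.39 h and ZT8.1 ± 0.61 h.

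Nop14 (chr5:34638536-34660148, minus strand), a scaffold of the small subunit head, had the smallest mean amplitude of the processome members. Nop14 under NRF averaged 4.67 ± 0.29, 4.56 ± 0.09, 4.60 ± 0.14, 4.67 ± 0.11, 4.68 ± 0.07, 4.76 ± 0.08 and 4.77 ± 0.17 from ZT0 to ZT24. Nop14 under DRF averaged 4.42 ± 0.04, 4.84 ± 0.10, 4.60 ± 0.24, 4.52 ± 0.12, 4.51 ± 0.07, 4.47 ± 0.12 and 4.49 ± 0.06. Under DRF the ZT4 group stood highest and the other means lay between 4.42 and 4.60. Its rhythms differed (adjusted p = 0.00809), although this was not called without replicate 3 (adjusted p = 0.0854), and its mean level was lower under DRF (-0.12 ± 0.04, adjusted p = 0.02), a call lost without ZT24, without replicate 2 and on the deposited values. Utp4, Utp15, Wdr43, Wdr75 and Heatr1 belong to the subcomplex that binds the precursor early, and their NRF amplitudes ran from 0.12 ± 0.05 (Utp4) to 0.61 ± 0.06 (Heatr1).

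Wdr75 and the GTPase gene Bms1 were the members with a smaller amplitude under DRF. Wdr75 under NRF averaged 4.91 ± 0.13, 4.75 ± 0.11, 4.28 ± 0.05, 4.25 ± 0.08, 4.61 ± 0.06, 4.88 ± 0.01 and 5.04 ± 0.09 from ZT0 to ZT24. Wdr75 under DRF averaged 4.37 ± 0.02, 4.70 ± 0.08, 4.68 ± 0.25, 4.74 ± 0.14, 4.49 ± 0.11, 4.57 ± 0.07 and 4.51 ± 0.10. Its amplitude was 0.39 ± 0.03 under NRF and 0.14 ± 0.03 under DRF, a difference of -0.25 ± 0.05 (adjusted p = 4.71e-04). Bms1 had amplitudes of 0.35 ± 0.04 and 0.15 ± 0.04 (adjusted p = 0.0224), and its call was lost under total-read scaling, on the deposited values, without ZT24 and without replicate 2, 3 or 4. Heatr1, with amplitudes of 0.61 ± 0.06 and 0.37 ± 0.06, and Utp20, with 0.43 ± 0.05 and 0.24 ± 0.05, departed from inversion (adjusted p = 0.0413 and 0.0419) without a called amplitude difference (adjusted p = 0.129 and 0.112). Both departures were lost with no filter, under total-read scaling, on the deposited values, without ZT24 and without replicate 2, 3 or 4.

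**Figure D3:**
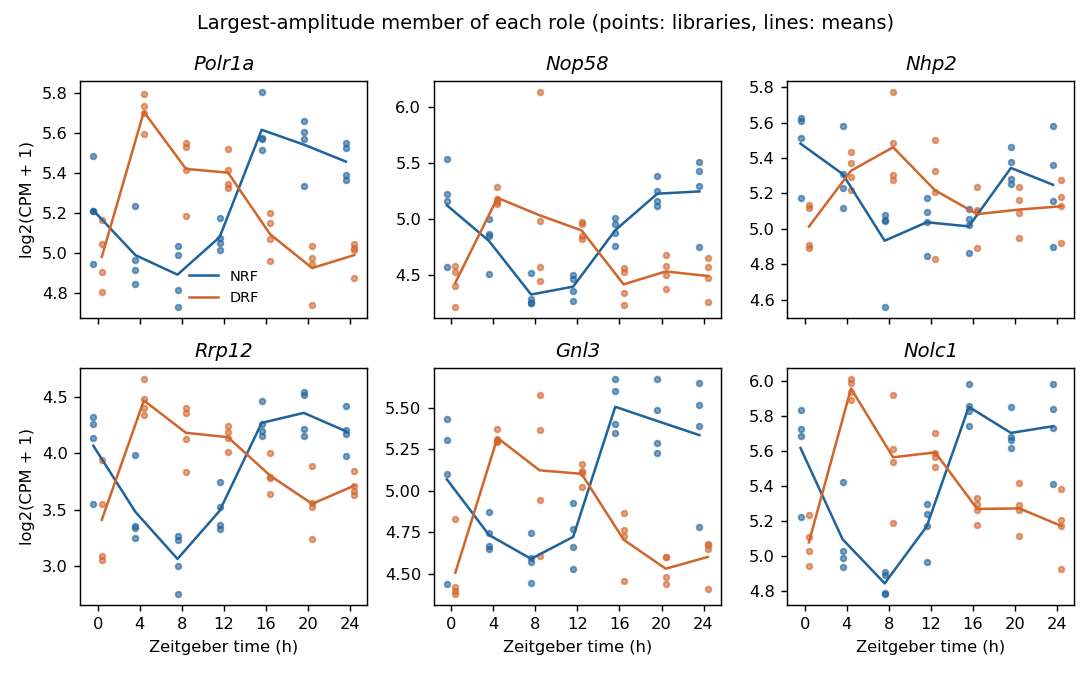
Level, log2(CPM + 1), of the largest-amplitude member of each of the 6 roles in every library (points) and as group means (lines) against zeitgeber time in h, NRF in blue and DRF in orange. The lines cross in each panel, with Rrp12 reaching from 3.07 (NRF ZT8) to 4.47 (DRF ZT4).

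Factors of the large subunit formed the longest list. Its rhythms differed in 9 of 10 members (53.9% of all genes), and 7 were rhythmic in each regimen (42.0% under NRF and 25.6% under DRF). The DRF calls of Nop2, Nop16 and Noc3l were lost without replicate 1. Gnl3 (chr14:31012433-31019152, minus strand), which encodes nucleostemin, a nucleolar GTPase, had the largest mean amplitude. Gnl3 under NRF averaged 5.07 ± 0.44, 4.73 ± 0.10, 4.59 ± 0.12, 4.72 ± 0.17, 5.51 ± 0.15, 5.42 ± 0.20 and 5.34 ± 0.38 from ZT0 to ZT24. Gnl3 under DRF averaged 4.51 ± 0.22, 5.32 ± 0.04, 5.12 ± 0.43, 5.10 ± 0.06, 4.70 ± 0.17, 4.53 ± 0.09 and 4.60 ± 0.13. Its group mean was 0.78 higher at NRF ZT16 than at NRF ZT12, the interval after food was given. At ZT20 the NRF libraries read 5.23, 5.49, 5.68 and 5.29 and the DRF libraries 4.48, 4.44, 4.60 and 4.60. At ZT16 the NRF libraries read 5.67, 5.35, 5.40 and 5.60 and the DRF libraries 4.77, 4.46, 4.73 and 4.87. Every DRF library was below every NRF library at both times, and the rhythms differed (adjusted p = 1.55e-10).

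Pes1 (chr11:3963975-3980004, plus strand) had the smallest mean of the 2 fitted amplitudes of all members. Pes1 under NRF averaged 5.60 ± 0.07, 5.61 ± 0.04, 5.54 ± 0.13, 5.72 ± 0.13, 5.59 ± 0.11, 5.56 ± 0.04 and 5.64 ± 0.07 from ZT0 to ZT24. Pes1 under DRF averaged 5.47 ± 0.02, 5.70 ± 0.07, 5.58 ± 0.10, 5.50 ± 0.08, 5.60 ± 0.04, 5.55 ± 0.13 and 5.57 ± 0.11. Its amplitudes were 0.02 ± 0.03 and 0.04 ± 0.03. Its protein binds those of Bop1 and Wdr12 in the PeBoW complex, and both partners had larger amplitudes. Bop1 had amplitudes of 0.44 ± 0.06 under NRF and 0.28 ± 0.06 under DRF with peaks at ZT20.7 ± 0.48 h and ZT9.0 ± 0.76 h. Wdr12 had 0.39 ± 0.05 and 0.21 ± 0.05 with peaks at ZT20.0 ± 0.45 h and ZT9.1 ± 0.86 h. The rhythm difference was called for Bop1 (adjusted p = 1.53e-10) and Wdr12 (adjusted p = 7.00e-10) and not for Pes1 (adjusted p = 0.677).

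The other large subunit factors had peaks close together. Nop2, an RNA methyltransferase, peaked at ZT19.2 ± 0.53 h and ZT7.4 ± 0.56 h, and Nop16 at ZT20.7 ± 0.55 h and ZT8.2 ± 0.64 h. Ebna1bp2 peaked at ZT21.0 ± 0.44 h and ZT9.0 ± 0.58 h, a distance of 12.0 ± 0.73 h. Noc3l peaked at ZT20.8 ± 0.37 h and ZT8.8 ± 0.60 h, and its rhythm difference had the smallest adjusted p of the 36 members (1.01e-13). Noc2l was rhythmic under DRF alone, and 20.9% of its annotated exon bases lie opposite exons of Samd11, so that reads of the pair could be mixed where counting did not use strand. Rrs1 was rhythmic in neither regimen, with amplitudes of 0.08 ± 0.05 and 0.13 ± 0.05, and its rhythm difference (adjusted p = 0.0268) was not called without the 2 libraries that stood apart or without replicate 1, 2 or 3.

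The nucleolar phosphoproteins include Npm1 and Ncl, which are abundant. Per kilobase of exon the highest were Npm1 at 56.8 CPM, Nop10 at 40.8 CPM, Nhp2 at 31.5 CPM and Ncl at 22.8 CPM, and the lowest was Wdr12 at 1.55 CPM. Nolc1 (chr19:46075863-46085530, plus strand), a scaffold on which snoRNPs gather, had the largest mean amplitude of this list. Nolc1 under NRF averaged 5.62 ± 0.27, 5.09 ± 0.22, 4.84 ± 0.07, 5.17 ± 0.15, 5.85 ± 0.10, 5.70 ± 0.10 and 5.74 ± 0.25 from ZT0 to ZT24. Nolc1 under DRF averaged 5.08 ± 0.12, 5.96 ± 0.05, 5.56 ± 0.30, 5.59 ± 0.08, 5.27 ± 0.07, 5.27 ± 0.12 and 5.17 ± 0.19. Its highest group was DRF ZT4. There the NRF libraries read 5.42, 5.03, 4.94 and 4.99 and the DRF libraries 5.94, 5.89, 6.01 and 5.99. At ZT8 the NRF libraries read 4.79, 4.89, 4.91 and 4.78 and the DRF libraries 5.92, 5.19, 5.61 and 5.54. The groups did not overlap at either time, and the rhythms differed (adjusted p = 6.98e-11). Its DRF rhythm (adjusted p = 0.0272) was not called without the 2 libraries that stood apart, on the deposited values, without ZT24 or without any 1 replicate number.

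Npm1 (chr11:33152287-33163206, minus strand), a nucleolar chaperone, had the smallest mean amplitude of this list. Npm1 under NRF averaged 7.30 ± 0.10, 7.40 ± 0.28, 7.44 ± 0.33, 7.37 ± 0.26, 7.30 ± 0.19, 7.34 ± 0.11 and 7.37 ± 0.17 from ZT0 to ZT24. Npm1 under DRF averaged 7.15 ± 0.37, 7.08 ± 0.05, 7.39 ± 0.50, 6.88 ± 0.19, 6.97 ± 0.12, 7.11 ± 0.11 and 7.05 ± 0.17. No rhythm was called in either regimen (adjusted p = 1.00 in both) and neither was their difference (adjusted p = 0.765). Its mean level was lower under DRF (-0.28 ± 0.06, adjusted p = 5.83e-04), the widest mean-level difference of the 36 members. Ncl, which encodes nucleolin, was rhythmic under DRF alone, with amplitudes of 0.05 ± 0.04 and 0.15 ± 0.04. Its DRF call was lost under total-read scaling, without ZT24 and without replicate 1, 2 or 3, and its rhythm difference under total-read scaling and without replicate 3. Ddx21, the helicase, peaked at ZT20.5 ± 0.51 h and ZT9.3 ± 0.66 h, and Mybbp1a at ZT21.5 ± 1.04 h and ZT8.0 ± 0.70 h. The DRF call of Ddx21 was lost without replicate 1 or 3. That of Mybbp1a was lost without ZT24 and without replicate 1, 2 or 3, and its NRF call without replicate 2 or 3.

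**Figure D4:**
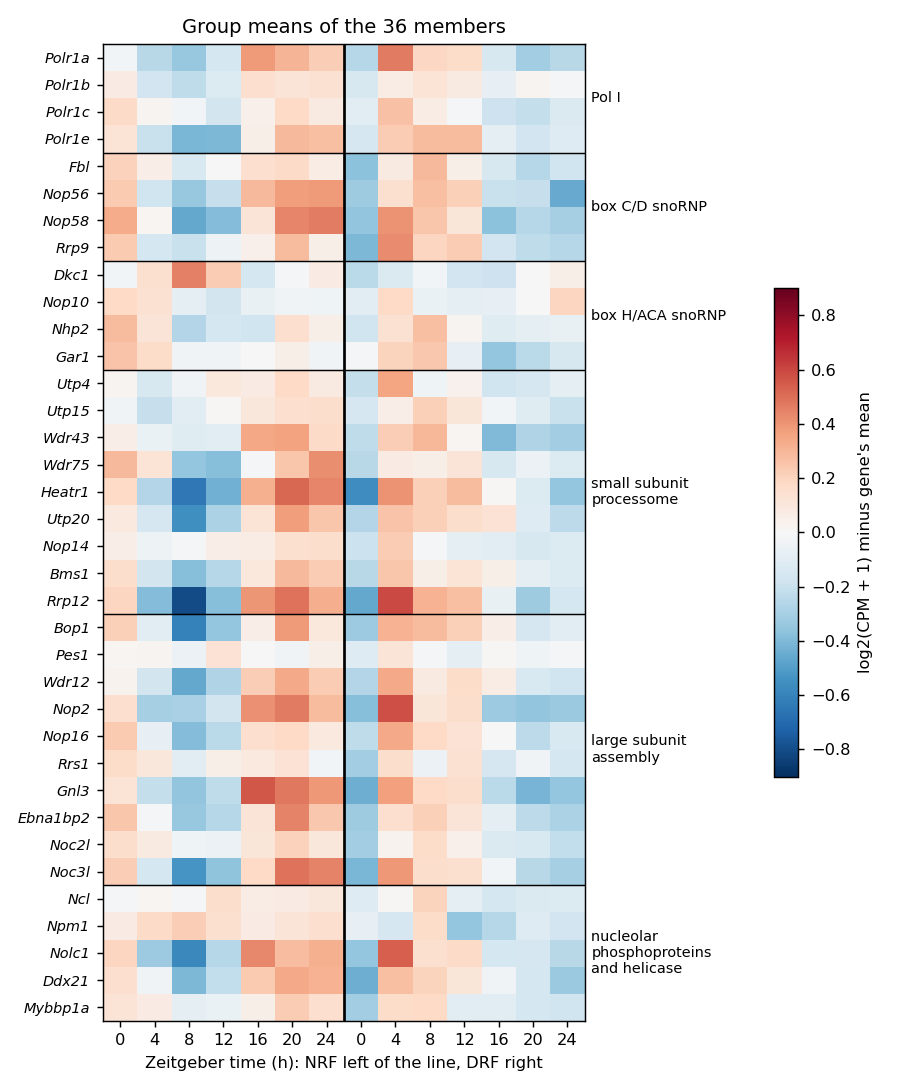
Group means of log2(CPM + 1) for the 36 members in rows by role, each minus the gene's mean over the 14 groups (colour, scale from -0.9 to 0.9), against zeitgeber time in h, NRF left of the line and DRF right. Blue columns stand at NRF ZT8, where 26 members were lowest, and at DRF ZT0, where 25 were lowest.

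The group means also show when within the day each member was highest. Under NRF the highest group mean fell at ZT20 in 17 members, at ZT0 in 6, at ZT24 in 5 and at ZT16 in 4. Under DRF it fell at ZT4 in 20 members, at ZT8 in 12 and at ZT12 in 2, and without DRF ZT8 replicate 1 in 23, 4 and 6, although the fitted cosine placed the median DRF peak at ZT8.2 for members with a rhythm in both. From DRF ZT0 to ZT4, the interval after food was given, the group mean was higher in 35 of 36 members by a median of 0.47 (1.39-fold), with Rrp12 the highest at 1.06 and Npm1 the exception at -0.07. From NRF ZT12 to ZT16, also after food was given, it was higher in 30 of 36 members by a median of 0.35 (1.28-fold), with Gnl3 the highest at 0.78 and Dkc1 the lowest at -0.39. In the interval after food was withdrawn the median step was -0.17 under DRF (ZT12 to ZT16, 32 of 36 lower) and -0.19 under NRF (ZT0 to ZT4, 32 of 36 lower). Members also moved later in the NRF fast. The median step was -0.20 from ZT4 to ZT8 (30 of 36 lower) and 0.13 from ZT8 to ZT12 (30 of 36 higher). It was 0.09 from NRF ZT16 to ZT20 and -0.08 from NRF ZT20 to ZT24. The other DRF steps had medians from -0.09 to -0.02. These steps are descriptions without a test, and they were not recomputed under total-read scaling. ZT0 and ZT24 lie a day apart at the same hour of the cycle. The median of ZT24 minus ZT0 over the members was 0.10 under NRF and 0.09 under DRF. Single members ran from -0.29 (Gar1) to 0.27 (Gnl3) under NRF and from -0.13 (Nop56) to 0.30 (Rrp12) under DRF.

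The regimens were then compared at each time point. At ZT0 the level was lower under DRF in 22 of 36 members, where 9.36% of all genes were called lower, and higher in 0, where 8.61% were called higher. At ZT4 it was higher under DRF in 18 members (18.1% of all genes) and lower in 0 (15.8%). At ZT8 it was higher in 25 (15.7%) and lower in 1, Dkc1 (12.2%). The median difference over the members was -0.45 at ZT0, 0.29 at ZT4 and 0.42 at ZT8, against -0.01, -0.02 and 0.02 over all genes. At an unadjusted p under 0.05, limma gave 0 members higher at ZT0 and 0 lower at ZT4. Under total-read scaling 10 members were higher at ZT4 and 2, Dkc1 and Npm1, were lower, and without the 2 libraries that stood apart 22 were higher and 1, Dkc1, was lower. Without the 2 libraries that stood apart the ZT8 count was 15 and its median difference 0.29. Shares of all genes under these alternative settings are not given here.

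At lights off the DRF side was still the higher. At ZT12 the level was higher under DRF in 16 members (15.1% of all genes) and lower in 3, Dkc1, Pes1 and Npm1 (12.1%). At ZT16 it was lower in 7 members (9.05%), which were Polr1a, Nop56, Wdr43, Rrp12, Nop2, Gnl3 and Nolc1, and higher in 0 (8.80%). Without the 2 libraries that stood apart 15 members were lower at ZT16, and the share of all genes under that setting is not given here. At ZT20 it was lower in 26 (11.7%) and higher in 0 (11.0%), and at ZT24 lower in 21 (9.75%) and higher in 0 (10.4%). At an unadjusted p under 0.05, limma gave 0 members higher at ZT16, 0 at ZT20 and 0 at ZT24. The median difference was 0.30 at ZT12, -0.22 at ZT16, -0.42 at ZT20 and -0.34 at ZT24. In 31 of 36 members every DRF library lay below every NRF library at ZT20, against 15.3% of all genes, and the exceptions were Polr1b, Dkc1, Nop10, Pes1 and Rrs1. In 19 members every DRF library lay above every NRF library at ZT8, against 8.73% of all genes.

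**Figure D5:**
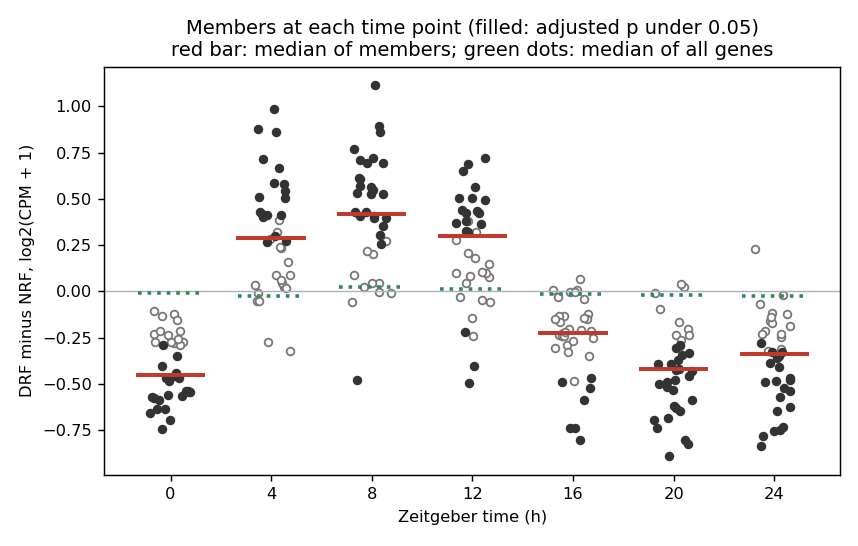
Difference DRF minus NRF in log2(CPM + 1) of each of the 36 members at each zeitgeber time (h), filled where the adjusted p was under 0.05, with the median of the members (red bar) and of all genes (green dots). The members' median is -0.45 at ZT0, 0.42 at ZT8 and -0.42 at ZT20, while that of all genes stays between -0.03 and 0.02.

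Averaged over the day the members differed little between the regimens. The fitted mean level was higher under DRF in 2 members (Polr1e and Bop1), where 18.6% of all genes were called higher, and the Bop1 call was lost on the deposited values, without ZT24 and without replicate 1, 2 or 3. It was lower in 7 (Dkc1, Wdr43, Nop14, Noc2l, Ncl, Npm1 and Mybbp1a), where 17.3% were called lower. The lower calls of Wdr43, Ncl and Mybbp1a were lost without replicate 2, 3 or 4. That of Ncl was also lost without ZT24, and those of Nop14 and Noc2l without replicate 2. Leaving out replicate 1 added Fbl, Nop56, Gar1, Gnl3 and Ebna1bp2, and leaving out ZT24 added Fbl. The median difference over the members was -0.05, with a range from -0.28 (Npm1) to 0.16 (Bop1), against -0.00 over all genes. When libraries were scaled by their total reads the calls were 1 higher (13.4% of all genes) and 15 lower (23.1%), and the median over all genes was -0.04. Without the 2 libraries that stood apart they were 2 higher and 11 lower, and the shares of all genes under that setting are not given here.

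Genes of the same pathway outside the 36 were counted from lists of 123 names, of which 120 were in the table and 119 were tested. Of these 82 were rhythmic under NRF, 51 under DRF and 43 under both, and the rhythm differed in 98, against 42.0%, 25.6%, 16.9% and 53.9% of all genes. Of the 82, 70 peaked between ZT18 and ZT24 (85.4%), against 40.2% of all genes rhythmic under NRF, and of the 51, 43 peaked between ZT6 and ZT12 (84.3%), against 39.3% of all genes rhythmic under DRF. Other small subunit factors were rhythmic under NRF in 32 of 50 and other large subunit factors in 34 of 43, again against 42.0%. Accessory snoRNP factors were rhythmic in both regimens in 0 of 10, against 16.9% of all genes. Bysl, a small subunit factor, had the largest mean amplitude of the 119, 0.71 ± 0.08 under NRF and 0.53 ± 0.08 under DRF, and its peaks were at ZT20.0 ± 0.41 h and ZT8.4 ± 0.56 h. Tsr1, also of the small subunit, had 0.65 ± 0.07 and 0.55 ± 0.07, and Ppan, of the large subunit, 0.52 ± 0.08 and 0.51 ± 0.08.

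The widest mean-level differences of the pathway genes did not share a direction. Mycn was higher under DRF by 0.52 ± 0.20 (adjusted p = 0.0326) at a low level of 1.26, and this was not called without replicate 1, 2 or 3 or with no filter. Rbm28, a large subunit factor, was higher by 0.33 ± 0.07 (adjusted p = 8.73e-05) and had an amplitude of 0.59 ± 0.07 under NRF and 0.09 ± 0.06 under DRF. Nop53, a large subunit factor, was lower under DRF (-0.31 ± 0.05, adjusted p = 5.92e-06) and peaked at ZT8.9 ± 0.58 h under NRF and ZT24.0 ± 0.89 h under DRF, opposite to most members.

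Of the 8 regulators listed, 7 were rhythmic under NRF (42.0% of all genes), 3 under DRF (25.6%) and 6 differed in rhythm (53.9%), and 3 of the 7 peaked between ZT18 and ZT24 under NRF. Myc, the transcription factor known to drive many of these genes, was rhythmic under NRF with its peak at ZT7.2 ± 0.87 h, when most members were low. Myc under NRF averaged 3.91 ± 0.36, 4.19 ± 0.48, 4.18 ± 0.29, 4.09 ± 0.17, 3.67 ± 0.13, 3.56 ± 0.17 and 3.74 ± 0.34 from ZT0 to ZT24. Myc under DRF averaged 3.64 ± 0.20, 3.41 ± 0.16, 4.14 ± 0.69, 3.79 ± 0.19, 3.64 ± 0.07, 3.66 ± 0.13 and 3.37 ± 0.04, its lowest groups being ZT24 and ZT4. Its rhythm difference was not called (adjusted p = 0.125), but was without the 2 libraries that stood apart (adjusted p = 0.00578), and it departed from inversion (adjusted p = 0.00321). Its mean level was lower under DRF (-0.23 ± 0.08, adjusted p = 0.0235), which was not called without replicate 3 or 4. Max, the partner of MYC on DNA, peaked at ZT18.8 ± 0.52 h and ZT8.2 ± 0.49 h, close to the members.

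Of the RNA polymerase I machinery outside the 36, Rrn3, the initiation factor that makes RNA polymerase I competent, had peaks at ZT18.9 ± 0.80 h and ZT7.0 ± 0.67 h and amplitudes of 0.22 ± 0.05 and 0.26 ± 0.05. Rrn3 under NRF averaged 5.54 ± 0.27, 5.28 ± 0.10, 5.19 ± 0.09, 5.48 ± 0.08, 5.62 ± 0.14, 5.60 ± 0.15 and 5.57 ± 0.16 from ZT0 to ZT24. Rrn3 under DRF averaged 5.32 ± 0.14, 6.00 ± 0.08, 5.52 ± 0.21, 5.60 ± 0.08, 5.37 ± 0.08, 5.28 ± 0.09 and 5.30 ± 0.13. Ubtf, which binds the promoter of the ribosomal RNA genes, had amplitudes of 0.05 ± 0.03 and 0.04 ± 0.03, and no rhythm (adjusted p = 0.968 and 1.00) or rhythm difference (adjusted p = 0.945) was called. Larp1, which controls translation of ribosomal protein messages, peaked at ZT20.8 ± 0.59 h and ZT7.3 ± 0.50 h. Maf1, a repressor of RNA polymerase III, peaked at ZT8.4 ± 0.41 h and ZT22.1 ± 0.66 h, so that its order in the day was the reverse.

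The members lie on 17 chromosomes. In 6 of 36 an annotated snoRNA gene lies inside the gene on the same strand (Nop56, Nop58, Dkc1, Wdr43, Gnl3 and Ncl, with 19 snoRNA genes in all), against 1.59% of all genes tested. Exon bases were shared with another gene of the same strand in 4 members, at most 8.0% of the bases (Nop56), and with a gene of the other strand in 14, at most 20.9% (Noc2l). The lowest count of any member in any library was 177 reads (Polr1e). The 18 members above the median level had a median of their mean amplitudes of 0.21 and the 18 at or below it 0.30.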

How the data were processed

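RNA from VAT was sequenced as poly(A)-selected paired-end libraries, and per the submitters' processing notes reads were aligned with HISAT2 (2.0.5) to mm10 and counted with featureCounts (1.5.0-p3). The use of strand in counting is not given in the sources used here. The deposited values are a score: they equal log2(CPM + 1) divided by exon length and rescaled by the authors to a nearly common total per library. Lengths from GENCODE M21 (GRCm38) or found from the values turned them back into reads, and 100.0% of 1262030 values of low and moderate counts were within 0.02 of a whole number. Log2(CPM + 1) with the library size that the authors used was analysed further for the 25937 genes resolved. No count test was run on the recovered reads. Reads on genes had a median of 35573063 per library.

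Genes with a mean log2(CPM + 1) of at least 0.5 were tested (15977). Rhythms at 24 h were called within a regimen (28 libraries) by JTK_CYCLE, with exact null distributions and 6 lags of 4 h, and Lomb-Scargle, joined by Fisher's method after meta2d. The joined p-values are not independent. Regimens were compared with limma (3.58.1, R 4.3.3, trended prior): cosine terms, inversion and mean level in a cosinor fit of 56 libraries, and time points in a fit of 14 groups. Amplitudes were compared by a Wald test of the cosinor model, as in CircaCompare. All p-values were adjusted by Benjamini-Hochberg over the genes tested. The labels number 4 libraries in each group without tying each to a mouse, so p-values measure the spread between these samples. No 2 libraries of a group differed by less than the sampling noise (chi-square per gene at least 15.3). The tests were tried on simulated data, and no outcome of that trial is given here. The members and lists were chosen with earlier results of these data known. All 36 members were counted. In each of the 6 roles the member with the largest and the one with the smallest mean of its fitted amplitudes is described at each time point, with library values for the largest at the times of widest difference. Exceptions to counts, Myc, Ubtf and Rrn3, and the 3 pathway genes with the largest mean amplitude and the 3 with the widest called mean-level difference, are named too. Other genes were named after their values were seen, to show the range. Alternatives were other scaling, pseudocount (0.1) and filter, the deposited values, leaving out ZT24, each replicate number or the 2 libraries apart, JTK_CYCLE or limma alone, and the replicate number as a block. Camk4 and Scd1 were left out because no length was resolved. Marker lists of mesothelium, muscle, lymph node, blood, macrophage, pancreas and liver were also summed. In DRF ZT8 replicate 1 and DRF ZT0 replicate 4 they came to 350 and 588 CPM for mesothelium, 30.6 and 21.2 for muscle, 6.24 and 9.05 for lymph node, 182 and 242 for blood, 659 and 865 for macrophage, 12.5 and 12.1 for pancreas, and 656 and 2345 for liver. The other 54 libraries ranged over 206 to 671, 6.21 to 544, 3.45 to 19.8, 150 to 745, 699 to 1963, 5.47 to 34.1 and 613 to 8271 CPM.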

Additional observations from a re-analysis of the deposited data

Results flagged for a closer look

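In 14 of 196 groups of 4 libraries examined, the highest or the lowest library lay apart from the other 3 by more than Dixon's 95% critical value for the gap over the range, which chance gives in about 5% of groups. For levels the ratio was 0.846 for Nop58 at NRF ZT8 (replicate 2 at 4.52, the others 4.25 to 4.29), 0.931 for Nhp2 at NRF ZT8 (replicate 1 at 4.56, the others 5.04 to 5.08) and 0.850 for Rrp12 at NRF ZT4 (replicate 1 at 3.98, the others 3.25 to 3.36). Gnl3 had 0.901 at DRF ZT0 (replicate 2 at 4.83, the others 4.38 to 4.42) and 0.898 at DRF ZT24 (replicate 1 at 4.41, the others 4.65 to 4.68). Polr1b had 0.876 at NRF ZT0 (replicate 3 at 4.18), Pes1 0.866 at DRF ZT0 (replicate 2 at 5.44) and 0.864 at NRF ZT0 (replicate 4 at 5.71), and Npm1 0.965 at NRF ZT0 (replicate 3 at 7.45). The mean of the 36 members had 0.912 at NRF ZT4 (replicate 1 at 0.06) and 0.872 at NRF ZT16 (replicate 4 at 0.17). Reads on genes had 0.942 at DRF ZT16 (replicate 2), 0.868 at NRF ZT20 (replicate 2) and 0.951 at NRF ZT24 (replicate 4), each the deepest library of its group.

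A difference between the regimens in the size of the rhythm was found by its own test for Wdr75 (adjusted p = 4.71e-04) and Bms1 (adjusted p = 0.0224), and the Bms1 call was lost under total-read scaling, on the deposited values, without ZT24 and without replicate 2, 3 or 4. A difference in the rhythm as a whole was found for 33 of the 36 members.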

How the results depend on the processing

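Of the counts recomputed under an alternative, 232 stayed within 1.5 times of the reported count and 56 did not, and no named result that was called turned its direction. The count of members rhythmic under DRF (24) was 14 without ZT24 and 9 to 18 without a replicate number, and over all genes (4089) it was 6793 by limma's F test, 7051 by that test with the replicate block and 2202 to 2844 without a replicate number. Members rhythmic in both (20) were 14 without ZT24 and 8 to 13 without a replicate number, and those with peaks at least 10 h apart (17) were 8 to 13 without a replicate number. Over all genes the NRF count (6710) was 4363 to 5501 without a replicate number. Departures from inversion (6) numbered 3 on the deposited values, 3 without ZT24 and 2 to 12 without a replicate number, with 1695 to 3626 over all genes (4155). Members with a higher mean level (2) numbered 1 under total-read scaling, on the deposited values and without ZT24, and 0 to 2 without a replicate number. Those with a lower mean level (7) numbered 15 under total-read scaling, 11 without the 2 libraries apart and 2 to 12 without a replicate number. Smaller DRF amplitudes (2) numbered 1 under total-read scaling, on the deposited values and without ZT24, 4 without the 2 libraries apart and 1 to 4 without a replicate number, with 241 on the deposited values and 75 to 332 without a replicate number over all genes (387). At ZT4 the members higher under DRF (18) numbered 10 and those lower (0) 2 under total-read scaling, and those lower 1 without the 2 libraries apart. Without these libraries 15 were higher at ZT8 (25) and 15 lower at ZT16 (7). Without a replicate number, members numbered 14 to 28 lower at ZT0, 11 to 22 higher and 0 to 1 lower at ZT4, 16 to 24 higher and 0 to 1 lower at ZT8, 10 to 18 higher and 0 to 2 lower at ZT12, 16 to 27 lower at ZT20 and 13 to 23 lower at ZT24. Fewer libraries entered these fits, and for the other settings the cause was not tested. In a tally over medians and some values of named genes, 415 kept their side of the threshold, 11 were no longer called and 14 were newly called. The 11 came from Myc, Mycn and Nop14. Lost calls of other genes, and of Nop14 on the deposited values, are given beside their results and were outside this tally.

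The labels give every group replicate numbers 1 to 4. Deviations of same-numbered DRF and NRF libraries at a time point correlated at a median of 0.02, from -0.28 to 0.33 (8 of 28 pairs above 0.1). Differently numbered libraries had a median of -0.02 (23 of 84 pairs above 0.1). A library correlated best with its own number in 7 of 28. Pairing by number was thus not detected, which does not exclude it. With the replicate block 23 members were lower at ZT0, 19 higher at ZT4 and 8 lower in mean level. With it 15 were higher at ZT12, the call of Nop56 being lost.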
